A study of Glycine max with 24 samples.

Results

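The omega-6 and omega-3 fatty acid desaturases of soybean (Glycine max) described here are 8 genes: FAD2-1A (Glyma.10G278000), FAD2-1B (Glyma.20G111000), the FAD2-2 copies Glyma.19G147300, Glyma.19G147400 and Glyma.03G144500, FAD3A (Glyma.14G194300), FAD3B (Glyma.02G227200) and FAD3C (Glyma.18G062000). They were listed by gene ID and are 8 of the 57105 gene IDs counted. The count tables carry IDs and no names, so the names are those given with the list of IDs, and IDs are written below without their prefix, which is GLYMA_ in the leaf table. In a RefSeq gene table of assembly Glycine_max_v4.0, which matched 0 of the IDs, 8 symbols of this family lay on the same chromosomes as the 8 IDs.

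FAD2 enzymes sit in the endoplasmic reticulum and place the omega-6 double bond that turns oleic acid into linoleic acid. FAD3 enzymes then place the omega-3 double bond that turns linoleic acid into alpha-linolenic acid. FAD2 and FAD3 enzymes are among those that set how unsaturated membrane lipids and seed oil are. In soybean, the FAD2-1 pair is known for its part in seed oil, the FAD2-2 copies for activity in vegetative organs, and the FAD3 genes for linolenic acid in seed oil, where mutations of them lower it.

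Reads per gene were counted in leaves and roots of a transgenic soybean line that the labels call GmNFYA overexpressing, GmNFYA being a subunit of the CCAAT-binding NF-Y transcription factor, and of the wild-type cultivar Jack. In each organ, plants of each genotype were treated with 150 mM NaCl for 6 h or were untreated (0 h). This gave 8 groups of 3 libraries, which are GmNFYA with NaCl, GmNFYA untreated, Jack with NaCl and Jack untreated, in root and in leaf. The labels give no untreated group at 6 h, so NaCl and elapsed time cannot be told apart. They do not name the promoter of the transgene, the number of transgenic events or the age of the plants. They also do not say whether replicates are separate plants, so p-values measure the spread between these libraries, which may be technical.

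Root libraries held 17005570 to 23459341 reads in genes and leaf libraries 17696429 to 21053889. The summed level of 4 IDs used as leaf markers was 16.5 to 59.2 CPM (counts scaled to library size) in root and 6317 to 19143 CPM in leaf, as the organ labels say. The title of the series speaks of seeds, but 9 IDs used as seed markers summed to 0.435 to 2.11 CPM in root, with reads in 3 of 9, and to 0 to 0.144 CPM in leaf, with reads in 1 of 9. In untreated Jack roots 9.24 to 10.3% of reads aligned to more than 1 place, against 5.19 to 5.88% in untreated GmNFYA roots; such reads count for no gene, and their part in the results was not tested. The third library of GmNFYA leaf with NaCl also stood apart, with 9.29% of such reads and 75.5% of reads in genes, against 5.01 and 4.87% and against 80.7 and 80.8% in the first and second. By their counts over all IDs, the second untreated and the first NaCl library of Jack leaf stood apart from the other 2 of their groups. At smaller differences, so did the first untreated library of GmNFYA leaf and the first NaCl library of Jack root.

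The family fell into 5 genes with a measurable level in both organs and 3 with almost no reads. CPM values were scaled by TMM within an organ, and a gene's CPM is not corrected for its length, so levels are compared between groups and never between genes. Differences were tested with edgeR's quasi-likelihood test and called where the p, adjusted by Benjamini-Hochberg over all IDs tested, was under 0.05. The IDs tested numbered 36390 in root and 35222 in leaf. All of 19G147400, 03G144500, FAD3A, FAD3B and FAD3C passed the filter on low counts in both organs, while FAD2-1A, FAD2-1B and 19G147300 passed in neither and have no test.

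**Figure D1:**
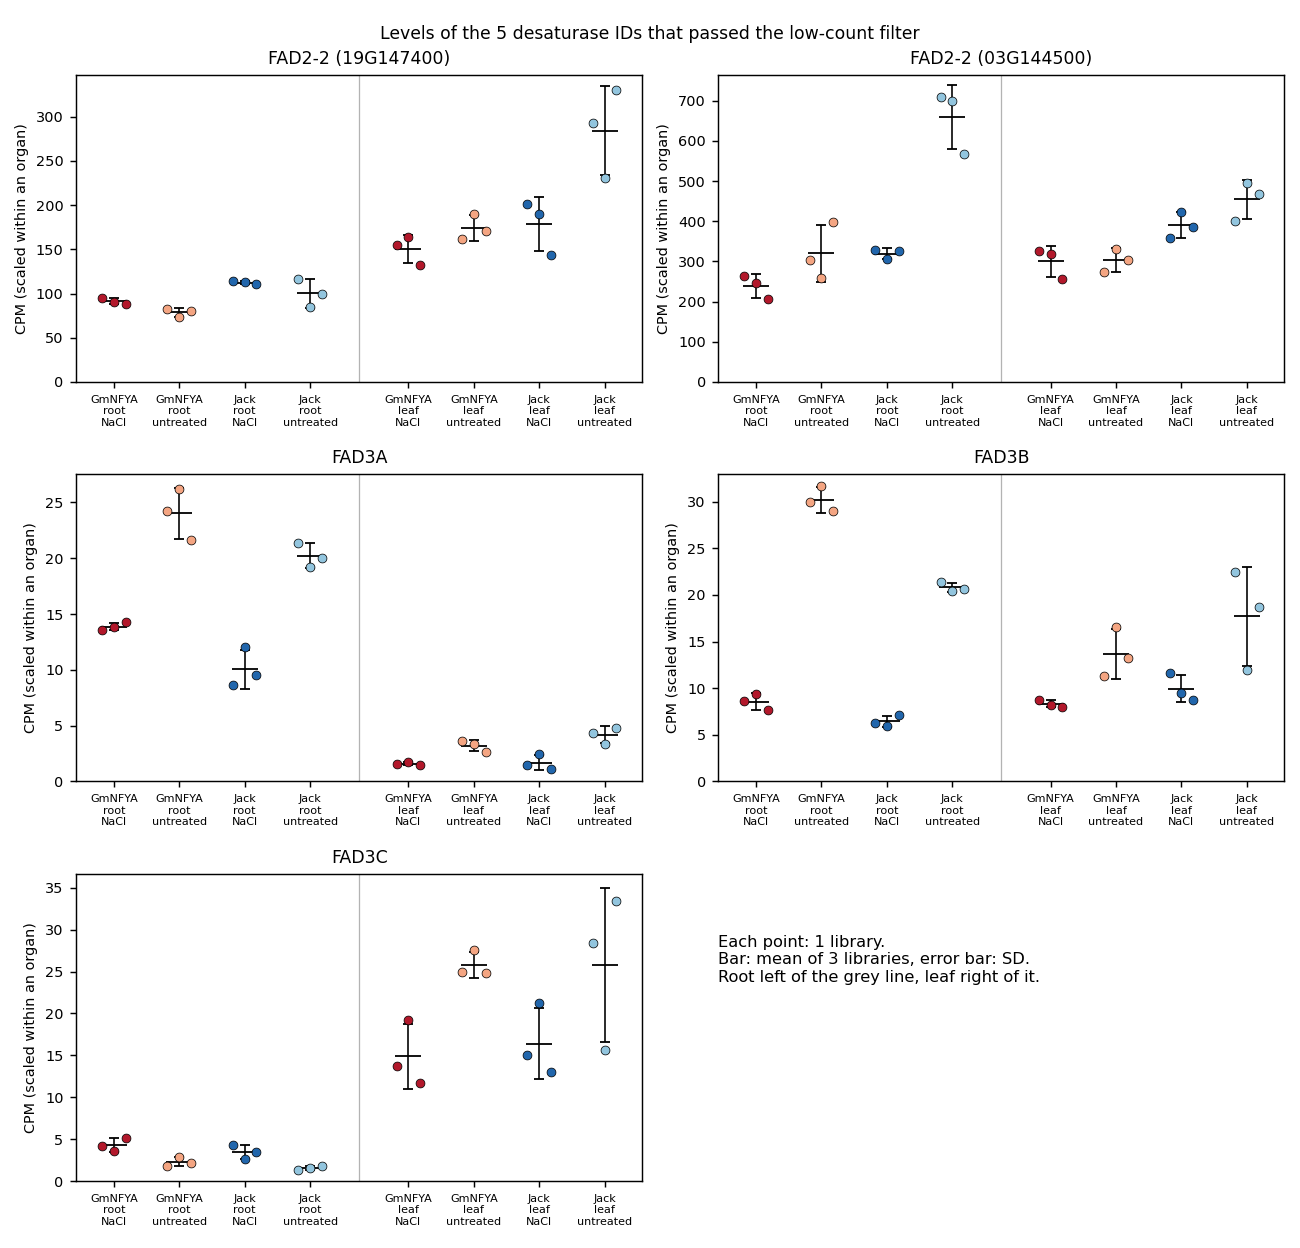
Level in CPM (scaled within an organ) of the 5 desaturase genes tested, by group, with 1 point a library and a bar at the mean of 3. FAD3B in root shows the clearest gap, with 5.98 to 9.43 CPM in the 6 NaCl libraries and 20.4 to 31.7 CPM in the 6 untreated ones.

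FAD2-1A, an omega-6 desaturase of developing seed, had no read in any of the 12 root libraries. A count of 0 there allows up to 0.0124 CPM over the 241339922 gene reads of root. In leaf it had 58 reads over 11 of 12 libraries. With the 12 libraries of an organ pooled, leaf was 19.8-fold higher when the root is set at 3 reads. For this fold each organ was scaled on its own, unlike the contrasts of root and leaf below. The fold covers the counting error of the root only. Of the 58 leaf reads, 36 were in GmNFYA with NaCl and 5 in Jack with NaCl, so the pooled fold does not hold for each group. By group the leaf reads were 10, 17 and 9 in GmNFYA with NaCl, 1, 8 and 0 in untreated GmNFYA, 3, 1 and 1 in Jack with NaCl, and 1, 2 and 5 in untreated Jack. GmNFYA leaf with NaCl held the 3 highest read counts, but after scaling its lowest library, at 0.433 CPM, overlapped the highest untreated GmNFYA library, at 0.459 CPM.

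FAD2-1B, its partner in seed oil, had most of its few reads in root: 34 reads over 9 of 12 root libraries and 2 reads, both in 1 library of GmNFYA with NaCl, in leaf. The root reads were 0, 6 and 0 in GmNFYA with NaCl, 5, 3 and 3 in untreated GmNFYA, 2, 0 and 3 in Jack with NaCl, and 3, 4 and 5 in untreated Jack. All 6 untreated root libraries held reads, while 3 of the 6 NaCl root libraries held none. With NaCl, root and leaf libraries therefore overlapped at 0 reads in both genotypes. The FAD2-2 copy 19G147300 had 2 reads in all, both in the second library of GmNFYA root with NaCl. Its neighbour on chromosome 19, 19G147400, had 22916 reads in root and 46312 in leaf.

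**Figure D2:**
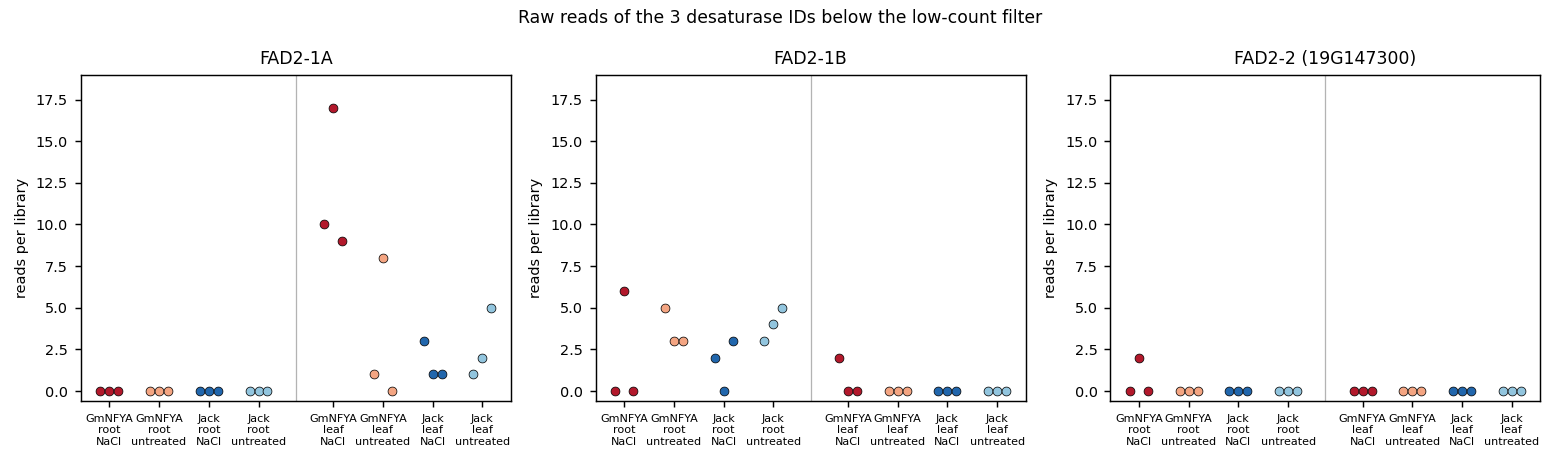
Reads per library of the 3 desaturase genes that did not pass the filter on low counts, by group, with 1 point a library. FAD2-1A has reads in leaf and none in root, FAD2-1B has 34 reads in root and 2 in leaf, and 19G147300 has 2 reads in all.

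Root and leaf differed most plainly at FAD3A and FAD3C. FAD3A, an omega-3 desaturase, was higher in root in every comparison, and FAD3C, its relative on chromosome 18, was lower in root in every comparison. For these contrasts all 24 libraries were scaled together, so the CPM values differ slightly from those within an organ. Root and leaf are different tissues, so that fewer cells of a type and less RNA per cell cannot be told apart, here and in every comparison below.

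In untreated GmNFYA plants, FAD3A averaged 22.5 ± 2.15 CPM in root and 3.49 ± 0.510 CPM in leaf, and with NaCl 12.9 ± 0.377 CPM in root and 1.67 ± 0.142 CPM in leaf (SD, n = 3 each). In Jack, it averaged 18.7 ± 1.11 CPM in root and 4.57 ± 0.830 CPM in leaf untreated, and 9.24 ± 1.59 CPM in root and 1.81 ± 0.720 CPM in leaf with NaCl. Root was 6.43-fold higher in untreated GmNFYA, 7.71-fold with NaCl, 4.09-fold in untreated Jack and 5.06-fold with NaCl, all called, with an adjusted p of 4.98e-10 at most. Every root library was above every leaf library.

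FAD3C ran the other way. In untreated GmNFYA it averaged 2.16 ± 0.503 CPM in root and 28.2 ± 1.74 CPM in leaf, and in untreated Jack 1.42 ± 0.215 CPM in root and 28.2 ± 10.1 CPM in leaf. With NaCl the means were 3.98 ± 0.749 CPM in root and 15.8 ± 4.15 CPM in leaf for GmNFYA, and 3.15 ± 0.762 CPM in root and 17.5 ± 4.64 CPM in leaf for Jack. Root was 12.96-fold lower in untreated GmNFYA and 19.6-fold lower in untreated Jack, and with NaCl 3.94-fold lower in GmNFYA and 5.5-fold lower in Jack, all called.

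The FAD2-2 copy 19G147400, an omega-6 desaturase of vegetative organs, was also lower in root in all 4 comparisons, with log2 changes of -1.37 in untreated GmNFYA, -0.91 in GmNFYA with NaCl, -1.75 in untreated Jack and -0.89 in Jack with NaCl. The copy 03G144500 was lower in root with NaCl, at -0.52 in GmNFYA and -0.50 in Jack. Untreated, its log2 difference was -0.14 in GmNFYA (adjusted p = 0.393) and 0.29 in Jack (adjusted p = 0.0842). The Jack difference was called with a filter of CPM above 1 (0.34, adjusted p = 0.0419) and when any 1 of 12 libraries was left out (adjusted p = 0.0291 to 0.0492), the second untreated Jack leaf library among them (0.41, adjusted p = 0.0291). FAD3B was higher in root in untreated GmNFYA (log2 0.92) and lower in root in Jack with NaCl (log2 -0.84), and its other 2 differences, -0.15 in GmNFYA with NaCl and -0.01 in untreated Jack, were not called.

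Counted over the 5 tested genes, 4 were called in untreated GmNFYA, where 70.9% of all IDs were called, 4 in GmNFYA with NaCl (69.4%), 3 in untreated Jack (69.9%) and 5 in Jack with NaCl (69.8%). These counts are near the share over all IDs. In the order of the 8 group means, FAD3A had its 4 root groups first and no overlap between neighbours among them, with untreated GmNFYA highest. FAD3C had its 4 leaf groups first, and the 2 untreated leaf groups overlapped each other, as did the 2 with NaCl. Untreated Jack leaf, at 17.1 to 36.8 CPM, also overlapped Jack leaf with NaCl (13.8 to 22.7 CPM) and GmNFYA leaf with NaCl (12.3 to 20.4 CPM). For 03G144500 the order mixed organs, from 608.9 CPM in untreated Jack root to 221 CPM in GmNFYA root with NaCl.

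In root, FAD3B, FAD3A and the FAD2-2 copy 03G144500 fell with NaCl and FAD3C rose, in both genotypes. Of the 5 genes tested, 4 were called in GmNFYA root, 1 higher and 3 lower, where 56.7% of all IDs were called, 28.6% higher and 28.1% lower. In Jack root 4 were called, 1 higher and 3 lower, where 56.9% of all IDs were called, 29% higher and 27.9% lower. With most root IDs called, a count of 4 of 5 says little about the family.

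FAD3B, which makes alpha-linolenic acid, had 8.58, 9.43 and 7.69 CPM in GmNFYA roots with NaCl, against 30.0, 31.7 and 28.95 CPM in untreated GmNFYA roots. In Jack roots it had 6.26, 5.98 and 7.11 CPM with NaCl, against 21.4, 20.4 and 20.7 CPM untreated. The NaCl and untreated libraries were far from overlapping in either genotype. FAD3B fell by 1.82 ± 0.102 on the log2 scale in GmNFYA (SE, adjusted p = 5.23e-10), 3.53-fold, and by 1.69 ± 0.107 in Jack (adjusted p = 2.88e-09), 3.22-fold.

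FAD3A had 13.6, 13.8 and 14.3 CPM in GmNFYA roots with NaCl, against 24.2, 26.2 and 21.7 CPM untreated. In Jack roots it had 8.64, 12.01 and 9.55 CPM with NaCl, against 21.4, 19.2 and 20.1 CPM untreated. Each NaCl library was below each untreated library of its genotype. FAD3A fell by 0.79 ± 0.115 on the log2 scale in GmNFYA (adjusted p = 2.19e-05) and by 1.01 ± 0.120 in Jack (adjusted p = 2.9e-06).

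FAD3C had 4.22, 3.52 and 5.13 CPM in GmNFYA roots with NaCl, against 1.85, 2.89 and 2.18 CPM untreated. In Jack roots it had 4.25, 2.61 and 3.44 CPM with NaCl, against 1.30, 1.54 and 1.78 CPM untreated. The groups did not overlap in either genotype, at levels that rest on 703 reads over the 12 root libraries. FAD3C rose 1.85-fold in GmNFYA (log2 0.89 ± 0.233, adjusted p = 0.00384) and 2.23-fold in Jack (log2 1.16 ± 0.253, adjusted p = 0.00103).

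The FAD2-2 copy 03G144500 had 263, 246 and 206 CPM in GmNFYA roots with NaCl, against 303, 258 and 398 CPM untreated. In Jack roots it had 329, 305 and 326 CPM with NaCl, against 709, 700.2 and 567 CPM untreated. The Jack groups were far apart, while in GmNFYA the highest NaCl library lay above the lowest untreated one. 03G144500 fell by 1.04 ± 0.143 on the log2 scale in Jack (adjusted p = 1.65e-05) and by 0.42 ± 0.143 in GmNFYA (adjusted p = 0.0189). The GmNFYA call was lost without the third untreated library, where the change was -0.24 (adjusted p = 0.125), and without the third NaCl library, where it was -0.33 (adjusted p = 0.0918).

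The other measured FAD2-2 copy, 19G147400, had 94.8, 90.9 and 88.7 CPM in GmNFYA roots with NaCl, against 82.8, 73.2 and 80.1 CPM untreated. In Jack roots it had 114, 113 and 111 CPM with NaCl, against 117, 84.7 and 99.01 CPM untreated. Neither difference was called, at log2 0.22 in GmNFYA (adjusted p = 0.0713) and 0.17 in Jack (adjusted p = 0.162). In GmNFYA the groups did not overlap, and the difference was called with only the compared groups (adjusted p = 0.038) and without the first (adjusted p = 0.0356) or the second (adjusted p = 0.0392) untreated Jack library. Without the first untreated Jack library the Jack difference was 0.29 (adjusted p = 0.0164).

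In leaf, all 3 FAD3 genes fell with NaCl in GmNFYA, and FAD3A, FAD3B and the FAD2-2 copy 19G147400 fell in Jack. Of the 5 tested genes, 3 were called in GmNFYA leaf, all lower, where 36.1% of all IDs were called, 17.8% higher and 18.2% lower. In Jack leaf 3 were called, all lower, where 33.6% of all IDs were called, 17.8% higher and 15.7% lower.

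FAD3A had 1.58, 1.71 and 1.44 CPM in GmNFYA leaves with NaCl, against 3.599, 3.33 and 2.68 CPM untreated, and 1.51, 2.43 and 1.14 CPM in Jack leaves with NaCl, against 4.37, 3.33 and 4.81 CPM untreated. No NaCl library reached an untreated one of its genotype. FAD3A fell by 1.02 ± 0.271 on the log2 scale in GmNFYA (adjusted p = 0.0101) and by 1.30 ± 0.266 in Jack (adjusted p = 0.00266).

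FAD3B had 8.75, 8.21 and 8.03 CPM in GmNFYA leaves with NaCl, against 11.3, 16.6 and 13.3 CPM untreated, and 11.6, 9.48 and 8.78 CPM in Jack leaves with NaCl, against 22.4, 11.98 and 18.7 CPM untreated. The gap in Jack was narrow, since the second untreated library, the one that stood apart, lay just above the highest NaCl library. FAD3B fell by 0.72 ± 0.209 in GmNFYA (adjusted p = 0.0175) and by 0.83 ± 0.206 in Jack (adjusted p = 0.00819) on the log2 scale. The GmNFYA call was lost without the second untreated library (adjusted p = 0.0804), the second NaCl library (adjusted p = 0.0582) or the third NaCl library (adjusted p = 0.06), the one with more reads aligned to several places.

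FAD3C had 13.7, 19.3 and 11.7 CPM in GmNFYA leaves with NaCl, against 24.9, 27.6 and 24.9 CPM untreated, and 15.03, 21.2 and 13.01 CPM in Jack leaves with NaCl, against 28.4, 15.6 and 33.4 CPM untreated. The groups were apart in GmNFYA and overlapped in Jack through the second untreated library. FAD3C fell by 0.80 ± 0.276 on the log2 scale in GmNFYA (adjusted p = 0.0434), but was not called when low counts were left in (adjusted p = 0.0669) or when any 1 of 7 libraries was left out, the third GmNFYA NaCl (adjusted p = 0.146) and the first Jack NaCl library (adjusted p = 0.0617) among them. In Jack the change of -0.65 was not called (adjusted p = 0.0901), and without the second untreated library it was -0.91 (adjusted p = 0.00878). DESeq2 called that change with all libraries (adjusted p = 0.0447).

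The FAD2-2 copy 19G147400 had 155, 163 and 133 CPM in GmNFYA leaves with NaCl, against 162, 190.3 and 171 CPM untreated, and 201, 190.3 and 144 CPM in Jack leaves with NaCl, against 292, 230.0 and 329.9 CPM untreated. It fell by 0.67 ± 0.156 on the log2 scale in Jack (adjusted p = 0.00543), and in GmNFYA the change of -0.21 was not called (adjusted p = 0.31). For the copy 03G144500 the changes were -0.01 in GmNFYA (adjusted p = 0.943) and -0.22 in Jack (adjusted p = 0.207), neither called.

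**Figure D3:**
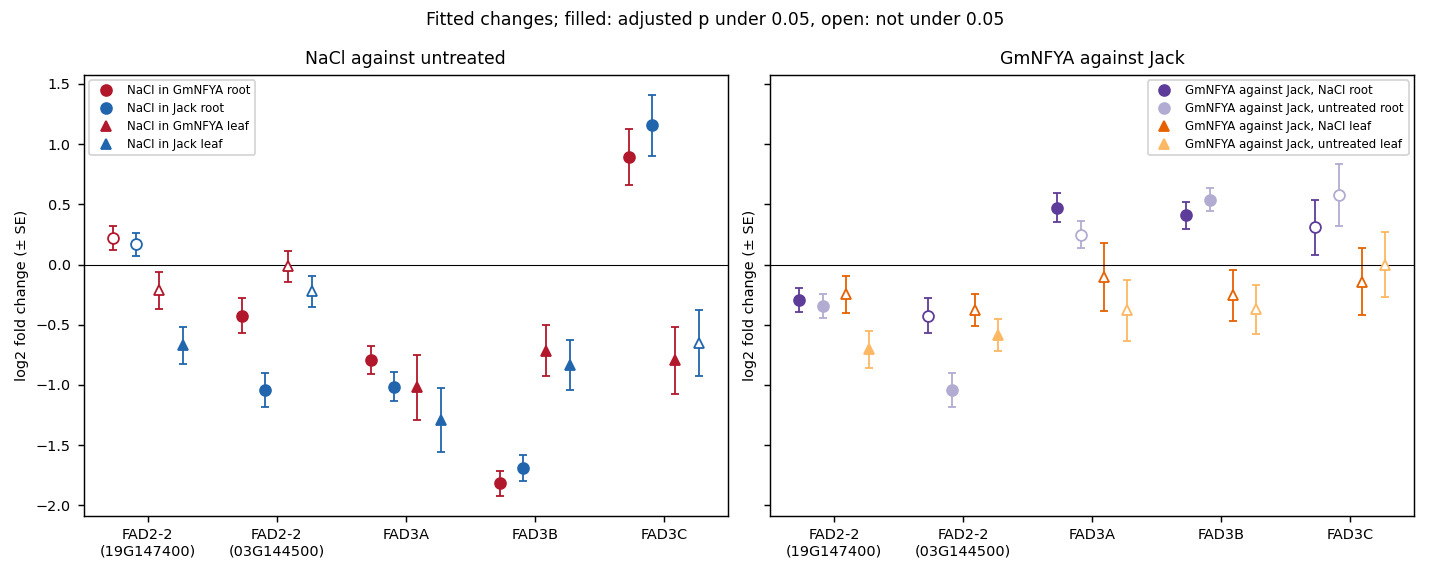
Log2 fold change with its SE for the 5 tested desaturase genes in each comparison within an organ, with filled points called at an adjusted p under 0.05. FAD3C and 19G147400 lie above 0 for NaCl in root and below 0 for NaCl in leaf in both genotypes, and of these FAD3C is called in root.

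The difference between the organs in the NaCl change was itself tested over all 24 libraries, as the root change minus the leaf change. In GmNFYA 2 of 5 genes were called, where 33.7% of all IDs were called, and in Jack 4 of 5, where 26.7% were called. FAD3C had 1.72 ± 0.381 in GmNFYA (adjusted p = 0.00137) and 1.84 ± 0.408 in Jack (adjusted p = 0.00195), the NaCl change being above 0 in root and below 0 in leaf. FAD3B fell more in root, at -1.07 ± 0.237 in GmNFYA (adjusted p = 0.00119) and -0.83 ± 0.239 in Jack (adjusted p = 0.0122). In Jack the FAD2-2 copies were called in opposite directions, 19G147400 at 0.86 ± 0.194 (adjusted p = 0.00198) and 03G144500 at -0.79 ± 0.208 (adjusted p = 0.00648). FAD3A, which fell in both organs, had 0.26 in GmNFYA (adjusted p = 0.496) and 0.31 in Jack (adjusted p = 0.431).

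The genotypes differed in root at the FAD2-2 copies, which were lower in GmNFYA, and at FAD3B, which was higher. In untreated roots 3 of 5 genes were called, 1 higher and 2 lower, where 23.3% of all IDs were called, 10.7% higher and 12.6% lower. With NaCl 3 of 5 were called, 2 higher and 1 lower, where 16.9% of all IDs were called, 7.05% higher and 9.9% lower. These comparisons use the same libraries as the NaCl comparisons above, and the values of each library are those already given. Of the 10 IDs nearest by number to FAD3B, 7 were tested in untreated root, with 3 called higher and 0 lower in GmNFYA. Around 19G147400 it was 1 higher and 1 lower of 9 tested, and around 03G144500 1 and 1 of 7. Whether neighbours share a genotype difference was not tested.

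In untreated roots 03G144500 averaged 319.8 ± 71.4 CPM in GmNFYA and 659 ± 79.7 CPM in Jack (SD, n = 3 each). It fell by 1.04 ± 0.143 on the log2 scale (adjusted p = 0.000108), with every GmNFYA library below every Jack library. With NaCl it averaged 238 ± 29.5 CPM in GmNFYA and 319.7 ± 12.9 CPM in Jack, a change of -0.42 that was not called (adjusted p = 0.0534). That change was called by DESeq2 (adjusted p = 0.0339), with only the compared groups (adjusted p = 0.0238) and when any 1 of 3 untreated root libraries was left out (adjusted p = 0.0184 to 0.0496). The NaCl change differed between the genotypes by 0.62 ± 0.201 in root, which was not called (adjusted p = 0.0718), and was called by DESeq2 (adjusted p = 0.0411) and without the third untreated GmNFYA library (0.81, adjusted p = 0.00939).

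FAD3B averaged 30.2 ± 1.37 CPM in GmNFYA and 20.8 ± 0.487 CPM in Jack in untreated roots, and 8.57 ± 0.872 CPM in GmNFYA and 6.45 ± 0.589 CPM in Jack with NaCl. It was 1.45-fold higher untreated (log2 0.54 ± 0.0961, adjusted p = 0.000872) and 1.33-fold higher with NaCl (log2 0.41 ± 0.111, adjusted p = 0.0203), with no overlap in either. FAD3A was 1.39-fold higher in GmNFYA with NaCl (log2 0.47 ± 0.121, adjusted p = 0.0154), and untreated its difference of 0.25 was not called (adjusted p = 0.125). With NaCl, the call of FAD3A was lost without the third GmNFYA library (adjusted p = 0.0515) or the first Jack library (adjusted p = 0.0543). That of FAD3B was lost when only the compared groups were fitted (adjusted p = 0.0775) and when any 1 of 4 libraries was left out.

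The copy 19G147400 was lower in GmNFYA roots, at -0.35 on the log2 scale untreated (adjusted p = 0.0182) and at -0.30 with NaCl (adjusted p = 0.0496). The untreated call was lost without the second GmNFYA library (adjusted p = 0.0866) or the first Jack library (adjusted p = 0.113). The NaCl call was lost with RLE size factors (adjusted p = 0.052), with no filter on low counts (adjusted p = 0.0511) and without any 1 of the 6 NaCl root libraries (adjusted p = 0.0763 to 0.14). FAD3C differed by 0.58 untreated (adjusted p = 0.12) and 0.31 with NaCl (adjusted p = 0.382), neither called.

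In untreated leaves both measured FAD2-2 copies were lower in GmNFYA, 2 of 5 genes where 4.51% of all IDs were called, 2.3% higher and 2.21% lower. Over all IDs this was 1590 calls, and 510 to 2065 when 1 library was left out. The copy 19G147400 averaged 174 ± 14.5 CPM in GmNFYA and 284 ± 50.4 CPM in Jack, and fell by 0.70 ± 0.156 on the log2 scale (adjusted p = 0.0235). The copy 03G144500 averaged 303 ± 29.6 CPM in GmNFYA and 455 ± 48.8 CPM in Jack, and fell by 0.59 ± 0.132 (adjusted p = 0.0249). The groups did not overlap for either copy, but both calls were lost without the first untreated GmNFYA library (adjusted p = 0.109 for 19G147400 and 0.118 for 03G144500) or the third (0.0995 and 0.0978). That of 19G147400 was also lost without the first (adjusted p = 0.0718) or the third (adjusted p = 0.0599) untreated Jack library, and that of 03G144500 with only the compared groups (adjusted p = 0.0522). With NaCl 0 of 5 genes were called in leaf by edgeR, where 9.61% of all IDs were called, 3.65% higher and 5.95% lower; DESeq2 also called 0, and 1 gene, 03G144500, had an unadjusted p under 0.05 in edgeR, at -0.38 (adjusted p = 0.0911).

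The summed leaf markers were lower in GmNFYA than in Jack in root, with no overlap: 16.5 to 21.7 CPM in GmNFYA and 43.3 to 59.2 CPM in Jack with NaCl, and 18.1 to 23.0 CPM in GmNFYA and 30.9 to 54.0 CPM in Jack untreated. In leaf they moved with genotype and NaCl. They were 6317 to 6626 CPM in GmNFYA with NaCl, 9360 to 12267 CPM in untreated GmNFYA, 9094 to 13548 CPM in Jack with NaCl and 13398 to 19143 CPM in untreated Jack. All 4 marker IDs had reads in every group, and their part in the root and leaf results was not tested.

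No gene of the family had a called difference between the genotypes in its NaCl change in edgeR, 0 of 5 in root, where 8.29% of all IDs were called, and 0 of 5 in leaf, where 2.45% were called. The leaf share is 863 calls over all IDs, and 227 to 1348 when 1 library was left out. In root 1 gene, 03G144500, had an unadjusted p under 0.05, and DESeq2 called that 1. In leaf 0 had an unadjusted p under 0.05, the lowest being 0.0571 for 19G147400, and DESeq2 called 0. A miss does not show that the genotypes responded alike: for FAD3B in root the difference was -0.13 with an SE of 0.147.

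The balance between 2 genes inside a library needs no scaling. It was taken as the log2 ratio of their reads, each plus 0.5, and tested by an exact two-sided permutation test of library labels within the other factor, with 400 arrangements and a smallest possible p of 0.005. Of 3 pairs designed, FAD3A to FAD3B was the 1 in which both genes had many reads. Its log2 ratio was 0.66, 0.55 and 0.89 in GmNFYA roots with NaCl, against -0.31, -0.27 and -0.42 untreated, and 0.46, 1.004 and 0.42 in Jack roots with NaCl, against 0.00, -0.09 and -0.04 untreated. Every NaCl root library had the ratio above every untreated one. The ratio rose by 0.85 on the log2 scale (exact permutation p = 0.005, 0.03 adjusted over the 12 designed tests), by 1.03 in GmNFYA and 0.67 in Jack.

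In leaf the same ratio moved by -0.43 with NaCl (exact permutation p = 0.08, adjusted 0.216), and between genotypes by -0.11 in root (adjusted 0.626) and 0.09 in leaf (adjusted 0.762), none called. In the other 2 designed pairs 1 gene had almost no reads, so the ratio follows the other gene and library depth. Among these, 19G147300 to 19G147400 in leaf was called for NaCl (0.36, exact permutation p = 0.005, adjusted 0.03), with 19G147300 at 0 reads in all 12 leaf libraries, and that call was lost when any 1 of 8 libraries was left out (adjusted p = 0.08 to 0.22). The remaining 7 tests of these 2 pairs had adjusted p of 0.06 to 0.835.

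A further pair of ratios was chosen after the counts had been seen and is given with no test. FAD3C to FAD3B averaged -1.01 ± 0.416 in GmNFYA roots with NaCl and -3.72 ± 0.279 untreated, and -0.93 ± 0.330 in Jack roots with NaCl and -3.75 ± 0.242 untreated (log2, SD, n = 3 each). In leaf it averaged 0.80 ± 0.370 in GmNFYA with NaCl and 0.93 ± 0.204 untreated, and 0.70 ± 0.408 in Jack with NaCl and 0.52 ± 0.275 untreated. The ratio of 03G144500 to 19G147400 averaged 1.37 ± 0.141 in GmNFYA roots with NaCl and 2.001 ± 0.271 untreated, and 1.51 ± 0.0647 in Jack roots with NaCl and 2.72 ± 0.284 untreated. In leaf it averaged 0.99 ± 0.0661 in GmNFYA with NaCl and 0.80 ± 0.0402 untreated, and 1.14 ± 0.292 in Jack with NaCl and 0.69 ± 0.363 untreated, so that the mean was higher with NaCl in leaf and lower with NaCl in root.

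**Figure D4:**
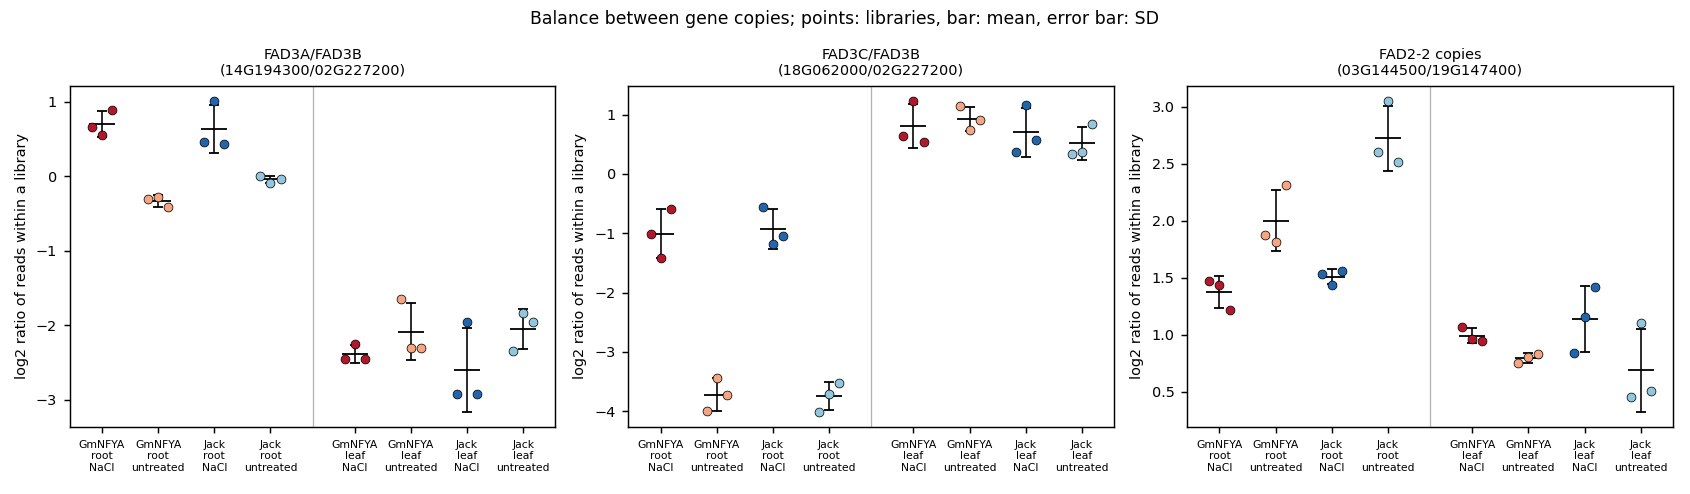
Log2 ratio of reads of 2 desaturase genes inside each library, by group, with 1 point a library and a bar at the mean of 3. The ratio of FAD3A to FAD3B is 0.42 to 1.004 in the 6 NaCl root libraries and -0.42 to 0.00 in the 6 untreated ones.

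Across the 12 root libraries, the log2 CPM of FAD3A and FAD3B had a Pearson r of 0.947, which describes libraries that share the same 4 groups. Among 32663 IDs with a mean of at least 1 CPM, FAD3B ranked 470 in likeness to FAD3A and FAD3A ranked 1665 in likeness to FAD3B, so many other IDs followed each more closely. The closest were 01G062900 to FAD3A (r = 0.988), 09G215700 to FAD3B (0.997), 17G226000 to FAD3C (0.960), 11G043100 to 03G144500 (0.982) and 05G169300 to 19G147400 (0.964). In leaf they were 04G002300 to FAD3A (0.970), 08G330100 to FAD3B (0.982), 04G207800 to FAD3C (0.939), 08G155700 to 03G144500 (0.952) and 16G134000 to 19G147400 (0.981). In leaf the closest desaturase of the 8 was FAD3C for FAD3A (0.863) and 19G147400 for FAD3B (0.841).

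A list of 18 further acyl-lipid IDs, recalled from published work and annotated by no table used here, had 17 tested in each organ. With NaCl, 8 rose and 6 fell in GmNFYA root and 8 rose and 6 fell in Jack root, with medians over the list of 0.15 and 0.12 on the log2 scale, beside 0.00 and -0.01 over all IDs. Of all IDs, 28.6% were called higher and 28.1% lower in GmNFYA root, and 29% higher and 27.9% lower in Jack root. In leaf 2 rose and 6 fell in GmNFYA and 2 rose and 5 fell in Jack, with medians of -0.34 and -0.04, beside -0.02 and -0.01 over all IDs. Of all IDs, 17.8% were called higher and 18.2% lower in GmNFYA leaf, and 17.8% higher and 15.7% lower in Jack leaf. The ID 11G227200 fell in all 4 comparisons, with log2 changes of -2.33 in GmNFYA root, -2.04 in Jack root, -1.51 in GmNFYA leaf and -1.75 in Jack leaf. The ID 09G065300 rose in all 4, with log2 changes of 0.82 in GmNFYA root, 1.33 in Jack root, 1.26 in GmNFYA leaf and 0.99 in Jack leaf.

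Between genotypes, 1 of the 17 was higher and 3 lower in GmNFYA in untreated root, where 10.7% of all IDs were called higher and 12.6% lower. In root with NaCl 1 was higher and 2 lower, beside 7.05 and 9.9% of all IDs, and in leaf with NaCl 0 were higher and 6 lower, beside 3.65 and 5.95%. In untreated leaf edgeR called 0 of the 17, of which 5 had an unadjusted p under 0.05, and DESeq2 called 1.

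**Figure D5:**
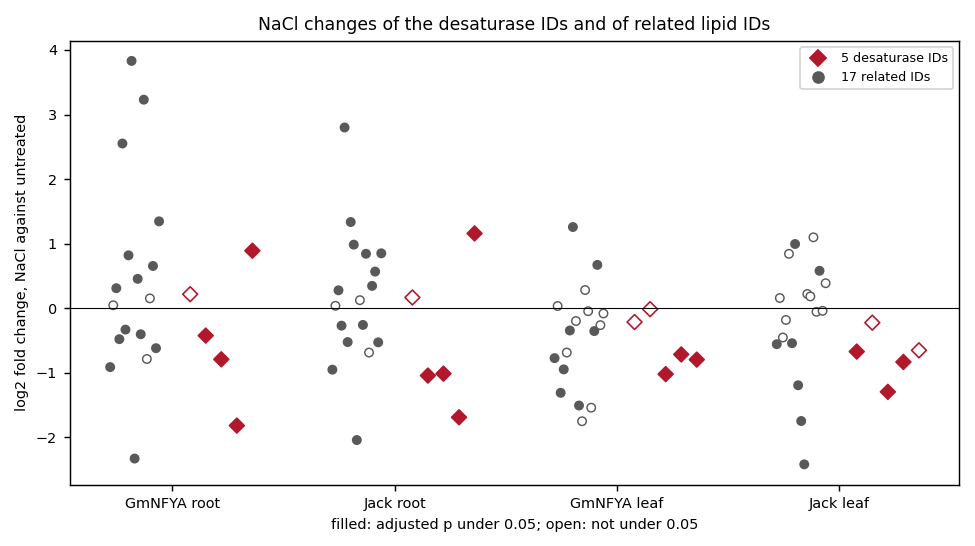
Log2 fold change with NaCl of the further acyl-lipid IDs that were tested, by organ and genotype, with filled points called at an adjusted p under 0.05. The ID 11G227200 is below 0 and 09G065300 above 0 in all 4 comparisons.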

How the data were processed

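The authors deposited whole-number read counts per gene, 1 table for 12 leaf and 1 for 12 root libraries, not normalized. The submitters' processing notes name HISAT2, featureCounts and DESeq2. Their versions, the genome build and the strand setting were not found in the labels or files, and levels of near-identical copies are uncertain. Rows naming no gene were left out.

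Members, lists and tests were chosen with earlier results of these data known. All 8 members are named in every comparison; the likeness rule takes the 1 ID with the highest r. Counts were tested with edgeR 4.0.16 in R 4.3.3 (filterByExpr, minimum count 10, TMM, robust quasi-likelihood, Benjamini-Hochberg), over the 4 groups of an organ or all 8 groups; the fit was tested on simulated data. Alternatives were DESeq2 1.42.0, RLE, no filter, CPM above 1, only the compared groups, a replicate block, a ratio pseudocount of 1, and leaving out each library. Balance p-values are adjusted over the 12 tests of the design. An earlier run had left out 8 of them and tested 2 pairs added after the counts were seen; all 12 were then run, and the added pairs are given as values.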

Additional observations from a re-analysis of the deposited data

Results flagged for a closer look

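The NaCl change differed between root and leaf, tested as root change minus leaf change on the log2 scale by edgeR over all 24 libraries, for these genes. In GmNFYA it was -1.07 for FAD3B (02G227200) and 1.72 for FAD3C (18G062000). In Jack it was 0.86 for 19G147400, -0.79 for 03G144500, -0.83 for FAD3B and 1.84 for FAD3C.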

How the results depend on the processing

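Of 1790 log2 changes of desaturase genes under the alternatives, 1718 kept their side of the threshold, 42 lost the call, 30 gained it and 0 reversed while called; 35 turned sign while called in neither fit, by at most 0.27. The count of desaturase genes called was 1 in place of 2 for genotype in untreated leaf with only the compared groups. For genotype by NaCl in root it was 1 in place of 0 with DESeq2. For root against leaf in untreated Jack it was 5 in place of 3 with no filter. Without the filter the low-count genes FAD2-1A, FAD2-1B and 19G147300 entered the count, and none of the 5 genes tested above gained a call. Leaving out 1 library gave 1 to 3 for NaCl in GmNFYA leaf, 0 to 2 for genotype in untreated leaf, 0 to 3 for genotype in root with NaCl and 0 to 1 for genotype by NaCl in root. Over all IDs, NaCl in Jack leaf gave 7510 calls with only the compared groups (11823 in the main analysis), genotype in untreated leaf 2863 with DESeq2 (1590), and genotype by NaCl in leaf 1385 with the replicate block and 1908 with DESeq2 (863). Among root libraries same-number r ran from -0.157 to 0.132, with 1 of 18 over 0.1, against 3 of 36 pairs with unlike numbers. Between untreated and NaCl Jack roots, however, same-number r were 0.0503, 0.095 and 0.132, and unlike-number r ran from -0.134 to 0.0373. Among leaf libraries same-number r ran from -0.0654 to 0.292, with 4 of 18 over 0.1, against 1 of 36. The numbers may therefore pair some leaf libraries, and these r do not settle whether they pair the Jack root libraries. With the replicate block, FAD3C in GmNFYA leaf with NaCl lost its call (adjusted p = 0.066). Adjusted p was 0.125 for the ratios FAD3A to FAD3B for NaCl in root (0.85) and 19G147300 to 19G147400 for NaCl in leaf (0.36). For ratios, the block exchanges labels only between libraries of like number. This allows fewer arrangements than the main permutation test, so the smallest possible p is larger. The FAD3A to FAD3B ratio was higher in every NaCl root library than in any untreated one. Its p was therefore the smallest the block allows, and the lost call cannot say whether this ratio depends on pairing. Leaving out 1 library gave 0.76 to 0.90 for the FAD3A to FAD3B ratio with NaCl in root, 0.27 to 0.44 for 19G147300 to 19G147400 with NaCl in leaf and 0.41 to 0.56 for its genotype difference in leaf, and 1.19 to 2.23 for FAD2-1A to FAD2-1B with NaCl in root. Adjusting over the 4 FAD3A to FAD3B tests alone, chosen after the p-values were seen, gave 0.02 in root with NaCl and changed no call. Low counts limit FAD2-1A, FAD2-1B and 19G147300.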
